A study of Oryza sativa with 6 samples.

Results

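The loci described here are 81 neighbouring gene models on rice chromosome 5 out of 46732 rows in the deposited table. They were taken by identifier alone, every row from LOC_Os05g46480 to LOC_Os05g47850, with no filter on expression. The bounds were chosen by measured values, since in an earlier reading of the same RPKM values this stretch held an excess of loci lower in NIL-qigl1HD385 than in NIL-qIGL1NIP. Differences between the lines inside it are therefore given as a description, without a test over its members.

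RNA-seq had been used to ask which genes differ between near-isogenic rice (Oryza sativa) lines that carry different versions of a grain length locus. NIL-qigl1HD385 carries the HD385 version and NIL-qIGL1NIP the NIP version, as their names give it. Both lines are labelled wild type, and young panicles of 8 to 10 cm were taken from each, in 3 libraries per line, with no treatment named. The labels give neither the age of the plants nor the position of the grain length locus nor the chromosome segments that each line carries. Separate plants are not stated for the 3 libraries of a line, and p-values therefore rest on a spread that may be technical alone. As the table pairs no identifier with a gene name, the labelled tissue was not checked against marker genes.

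Near-isogenic lines are bred by repeated crossing to 1 parent, so that most of the genome is shared and chosen segments differ. Segments inherited from a donor parent span many neighbouring genes, and these can differ between the lines in sequence, in gene content and in expression. The LOC_Os identifiers come from the Rice Genome Annotation Project. In them the chromosome number stands before the letter g and the locus number after it follows the order along the chromosome. A young panicle is the developing inflorescence, a mixture of branch, spikelet and floral tissue. In such a bulk sample fewer cells of a type and less RNA per cell cannot be told apart. The level of a locus is given as RPKM, a read count scaled to the length of the gene model and to the library total.

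Library totals recovered from the RPKM values lay between 43536754 and 52466060 reads, and each library had 32231 to 33646 loci above 0. Pearson correlations between libraries over the tested loci, which are not independent, were 0.951 to 0.978 within lines and 0.922 to 0.969 between lines. NIL-qigl1HD385 replicate 2 had the lowest mean correlation both with its own line (0.953) and with the other line (0.925). Over the whole table, the 23181 loci that averaged at least 0.5 RPKM were tested with limma on the log2(RPKM + 0.5) scale. A locus is termed called where its Benjamini-Hochberg adjusted p over all of these was under 0.05. The calls numbered 170, which is 0.733% of the tested loci, with 87 higher and 83 lower in NIL-qigl1HD385.

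In the chromosome 5 stretch, 50 of the 81 loci reached the mean of 0.5 RPKM and 6 of these were called, all lower in NIL-qigl1HD385. Their share of 12% stands beside the 0.733% of all tested loci, or 0.358% for loci called lower, and nothing is read from this, since the same contrast set the bounds. The 6 calls did not spread evenly. LOC_Os05g46630 and LOC_Os05g46710 were the 14th and 20th rows and had levels of 3 RPKM or more in both lines. The other 4 calls were LOC_Os05g46890, LOC_Os05g46920, LOC_Os05g46950 and LOC_Os05g46954. They lay between the 36th and 41st rows and were consecutive among the tested loci, with untested rows between some of them. Their means were under 0.1 RPKM in NIL-qigl1HD385, so they reached the mean of 0.5 RPKM only through NIL-qIGL1NIP. Calls with a mean under 0.1 RPKM in NIL-qigl1HD385 made up 0.198% of all tested loci. From LOC_Os05g47442 to LOC_Os05g47850, the last 40 rows, limma called 0 of 23 tested loci. Without adjustment 5 of these had a p under 0.05, beside 17% of all tested loci, and limma voom on recovered reads also called 0.

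**Figure D1:**
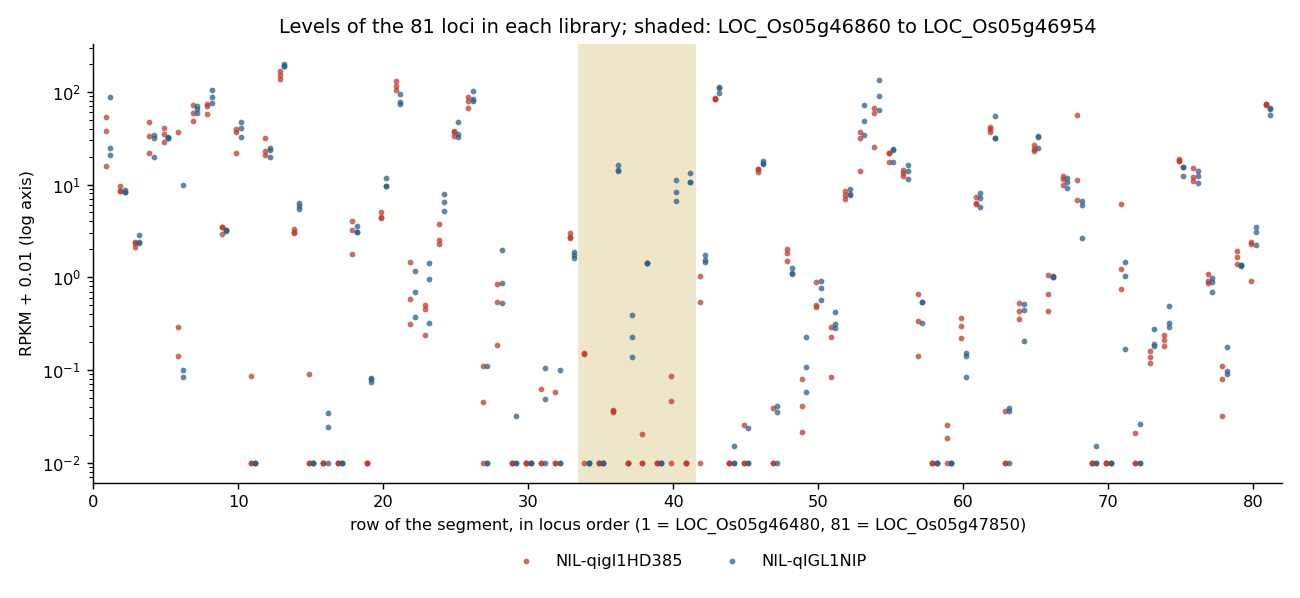
Level of each of the 81 loci (RPKM + 0.01, log axis) against its row in locus order, with 1 point per library, NIL-qigl1HD385 in red and NIL-qIGL1NIP in blue. In the shaded rows, LOC_Os05g46860 to LOC_Os05g46954, NIL-qIGL1NIP reached up to 16.2 RPKM while no NIL-qigl1HD385 library exceeded 0.142 RPKM; on either side the points of both lines lie mostly together.

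The deepest difference was a stretch of 8 consecutive rows, LOC_Os05g46860 to LOC_Os05g46954, in which every row had a mean under 0.1 RPKM in NIL-qigl1HD385. Over these rows NIL-qigl1HD385 had 15 reads in its 3 libraries and NIL-qIGL1NIP had 9963. The ratio of depth-scaled reads, NIL-qIGL1NIP over NIL-qigl1HD385, was 651, with an exact 95% interval of 394 to 1163 that covers counting error only. Of the 8 rows, 5 had reads in NIL-qIGL1NIP. LOC_Os05g46874 and LOC_Os05g46930 were at 0 reads in all 6 libraries, so they show no difference. LOC_Os05g46860 went the other way, with 1, 1 and 0 reads in the NIL-qigl1HD385 libraries and 0 in every NIL-qIGL1NIP library, which is too few reads to tell the lines apart.

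LOC_Os05g46890 was the most abundant of the stretch. Its levels were 0.0258, 0.0251 and 0.0270 RPKM in NIL-qigl1HD385 replicates 1, 2 and 3, against 14.1, 14.2 and 16.2 RPKM in NIL-qIGL1NIP. The groups lay far apart, and the values within each line were close. Each NIL-qigl1HD385 library held 2 reads of it, 6 in all, against 3483 reads in NIL-qIGL1NIP. The depth-scaled ratio, NIL-qIGL1NIP over NIL-qigl1HD385, was 569 (exact 95% interval 261 to 1550.4). On the log2(RPKM + 0.5) scale, which understates the change of a locus near 0, the difference was -4.86 (SE 0.12).

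LOC_Os05g46954, the last row of the stretch, had no read in any NIL-qigl1HD385 library, against 10.6, 10.6 and 13.1 RPKM in NIL-qIGL1NIP replicates 1, 2 and 3. These rest on 1580, 1424 and 1621 reads. A count of 0 over the 3 NIL-qigl1HD385 libraries allows up to 0.00755 RPKM, the level of 3 reads. By the exact 95% interval of the depth-scaled ratio, the locus was at least 1228-fold lower in NIL-qigl1HD385. It was thus the only called member with no read at all in that line.

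LOC_Os05g46950, its neighbour, was low in NIL-qigl1HD385 without being at 0 throughout. It had 0.0751, 0.0366 and 0 RPKM in NIL-qigl1HD385, from 4, 2 and 0 reads, against 8.20, 6.71 and 11.2 RPKM in NIL-qIGL1NIP. The NIL-qIGL1NIP libraries varied more here than at the other 3 called loci of the stretch, with an SD of 2.27 around a mean of 8.69 RPKM (n = 3). Even so, no value of one line came near the other. The difference was -4.07 on the log2 scale (SE 0.20), and the depth-scaled ratio, NIL-qIGL1NIP over NIL-qigl1HD385, was 228 (exact 95% interval 104 to 622).

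LOC_Os05g46920 was expressed at a lower level. It had 1 read in NIL-qigl1HD385 replicate 1 and none in replicates 2 and 3, or 0.00338 ± 0.00585 RPKM, against 1.42 ± 0.00978 RPKM in NIL-qIGL1NIP (SD, n = 3 each). Its 3 NIL-qIGL1NIP values, 1.43, 1.43 and 1.41 RPKM, were the closest together of the called loci. They rest on 157, 142 and 129 reads, where counting error alone can spread values wider, so nothing is read from this closeness. With a single read in NIL-qigl1HD385 the depth-scaled ratio of 419, NIL-qIGL1NIP over NIL-qigl1HD385, has a wide exact 95% interval of 74.8 to 16596. Its log2 difference of -1.93 (SE 0.15) is smaller than those of its called neighbours, and the pseudocount of 0.5 weighs more at this level.

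LOC_Os05g46910, between these loci, fell under the filter and was not tested. It was at 0 reads in NIL-qigl1HD385, against 0.214, 0.380 and 0.129 RPKM in NIL-qIGL1NIP from 10, 16 and 5 reads. A count of 0 allows up to 0.0240 RPKM in NIL-qigl1HD385, and by the exact 95% interval this locus was at least 7.75-fold lower there. It goes the same way as the called loci around it, at a much lower level.

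**Figure D2:**
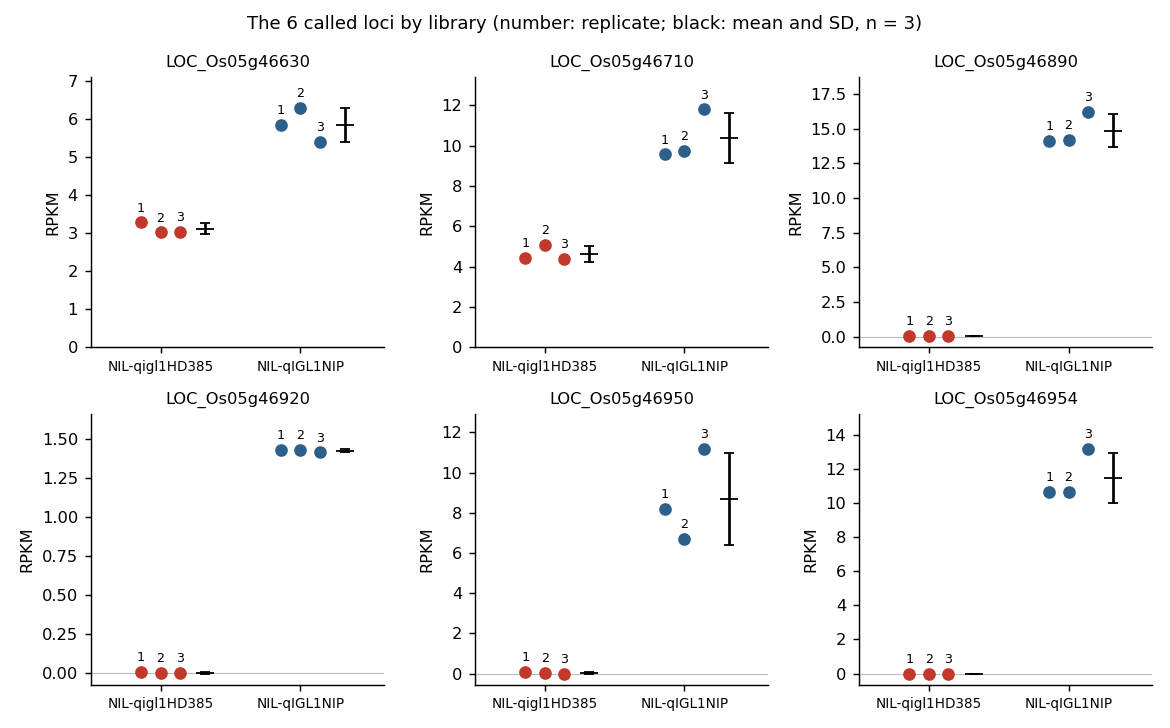
Level (RPKM, linear axes) of the 6 called loci in each library, NIL-qigl1HD385 left in red and NIL-qIGL1NIP right in blue, with the replicate number beside each point and the mean and SD in black (n = 3). LOC_Os05g46630 and LOC_Os05g46710 had means of 3.11 and 4.64 RPKM in NIL-qigl1HD385, while the other 4 loci had means of at most 0.0372 RPKM there.

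The edge before the stretch, where the low level in NIL-qigl1HD385 begins, could not be placed to the row. The row before it, LOC_Os05g46845, was expressed in every library and was higher in NIL-qigl1HD385, with 2.67, 2.65 and 2.98 RPKM against 1.88, 1.73 and 1.59 RPKM in NIL-qIGL1NIP. The lines did not overlap there, but the locus was not called (log2 difference 0.55, SE 0.13). As LOC_Os05g46860 and LOC_Os05g46874 had almost no reads in either line, this edge can be placed only between LOC_Os05g46845 and LOC_Os05g46890. On the other side, the low level in NIL-qigl1HD385 ended between adjacent rows of the table, LOC_Os05g46954 and LOC_Os05g47442. The locus number steps by 488 there, whereas the median step among the 81 loci is 10 and the next largest is 20. A step that large or larger occurs at 5 of the 3784 steps of chromosome 5 in the table and at 44 of 46621 steps in all.

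LOC_Os05g47442, just across this step, had 0.530, 1.03 and 0 RPKM in NIL-qigl1HD385, against 1.74, 1.52 and 1.46 RPKM in NIL-qIGL1NIP. All NIL-qIGL1NIP values were the higher ones, but the NIL-qigl1HD385 libraries ranged widely and the locus was not called (log2 difference -1.17, SE 0.40). The difference was -0.72 without NIL-qigl1HD385 replicate 3, the library at 0, and -1.53 without replicate 2 of that line. The row after it, LOC_Os05g47446, was abundant in both lines, at 83.6, 83.4 and 86.2 RPKM in NIL-qigl1HD385, against 114, 111 and 96.2 RPKM in NIL-qIGL1NIP.

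Such a stretch was uncommon in the table. Consecutive rows with a mean under 0.1 RPKM in NIL-qigl1HD385 formed 7966 stretches over the 12 chromosomes, 3960 of them with 2 rows or more. The stretch at LOC_Os05g46860 to LOC_Os05g46954 held 4 loci with a mean of at least 1 RPKM in NIL-qIGL1NIP, and no other stretch held as many. The next held 3, from LOC_Os11g28370 to LOC_Os11g28600. With the lines exchanged, 2 of 7822 stretches held at least 4 such loci, both on chromosome 11. The larger of these, from LOC_Os11g45780 to LOC_Os11g45924, held 9, more than the stretch on chromosome 5. These counts describe the table and are no test, as the stretch was known for its difference.

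The rows before the stretch, LOC_Os05g46480 to LOC_Os05g46845, held 33 loci, 23 of them tested, with both other calls. Here NIL-qigl1HD385 was lower, by about 1 on the log2 scale, at single loci that stood among neighbours with smaller or opposite differences. LOC_Os05g46630 had 3.28, 3.02 and 3.04 RPKM in NIL-qigl1HD385, against 5.83, 6.29 and 5.40 RPKM in NIL-qIGL1NIP, a log2 difference of -0.81 (SE 0.11). LOC_Os05g46710 had 4.43, 5.10 and 4.38 RPKM in NIL-qigl1HD385, against 9.58, 9.75 and 11.8 RPKM in NIL-qIGL1NIP, a log2 difference of -1.08 (SE 0.13). In both the libraries of a line lay close together and the lines did not overlap. When libraries were left out, these calls were lost more often than those of the near-silent stretch. In that stretch the pseudocount leaves little spread among the NIL-qigl1HD385 values, so keeping a call there says little about firmness. Without any 1 of the 6 libraries LOC_Os05g46630 was no longer called, at log2 differences of -0.86 to -0.76 and adjusted p of 0.071 to 0.20 in limma. LOC_Os05g46710 lost its call without replicate 1 or 3 of NIL-qigl1HD385 and without replicate 1 or 2 of NIL-qIGL1NIP, at log2 differences of -1.14 to -0.99 and adjusted p of 0.046 to 0.11 in limma over the 6 such fits.

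LOC_Os05g46760 had a difference of like size without being called. It had 2.52, 3.73 and 2.26 RPKM in NIL-qigl1HD385, against 5.12, 6.41 and 7.96 RPKM in NIL-qIGL1NIP. Its 3 NIL-qIGL1NIP values were all higher, but they ranged more widely than at LOC_Os05g46710, and the log2 difference of -1.07 had an SE of 0.22. LOC_Os05g46700, directly before LOC_Os05g46710, was under the filter. It was at 0 reads in NIL-qigl1HD385 and at 5, 4 and 4 reads in NIL-qIGL1NIP. By the exact 95% interval it was at least 2.99-fold lower in NIL-qigl1HD385, on few reads.

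The loci next to these differed less, or in the other direction. LOC_Os05g46620, the row before LOC_Os05g46630, is the most abundant of the 81 loci. It had 167, 137 and 153 RPKM in NIL-qigl1HD385, against 190.0, 199.9 and 189 RPKM in NIL-qIGL1NIP, lower without overlap and not called (log2 difference -0.34, SE 0.11). LOC_Os05g46690, the tested locus between the 2 called ones, had 4.0, 1.76 and 3.21 RPKM in NIL-qigl1HD385, against 3.52, 3.05 and 3.09 RPKM in NIL-qIGL1NIP, and the lines overlapped. LOC_Os05g46720, the row after LOC_Os05g46710, went in the opposite direction, with 114, 132 and 103 RPKM in NIL-qigl1HD385, against 73.0, 95.3 and 77.6 RPKM in NIL-qIGL1NIP. Its log2 difference of 0.51 (SE 0.14) was not called.

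Reads summed over the 3 parts of the segment show how little of its RNA the near-silent stretch makes up. The sums are given as CPM, recovered reads scaled to the library total. The middle part was itself delimited by its low level in NIL-qigl1HD385, so its separation from the parts on either side follows from that choice. In the stretch itself they were 0.170, 0.103 and 0.0445 CPM in NIL-qigl1HD385, against 65.8, 64.4 and 79.6 CPM in NIL-qIGL1NIP. Before it, they averaged 1407 ± 90.5 CPM in NIL-qigl1HD385 and 1489 ± 73.6 CPM in NIL-qIGL1NIP (SD, n = 3 each), and the lines overlapped. After it, they averaged 764 ± 69.0 CPM in NIL-qigl1HD385 and 883 ± 143 CPM in NIL-qIGL1NIP, again with overlap. Summed together, the rows before and after the stretch gave 2270, 2004 and 2241 CPM in NIL-qigl1HD385. They gave 2460, 2344 and 2311 CPM in NIL-qIGL1NIP, higher without overlap. The sums after the stretch include 21704 and 20672 reads of LOC_Os05g47540 and LOC_Os05g47545 in NIL-qIGL1NIP, and 11128 and 10427 in NIL-qigl1HD385. These 2 loci may share reads, which the sums would then count more than once.

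**Figure D3:**
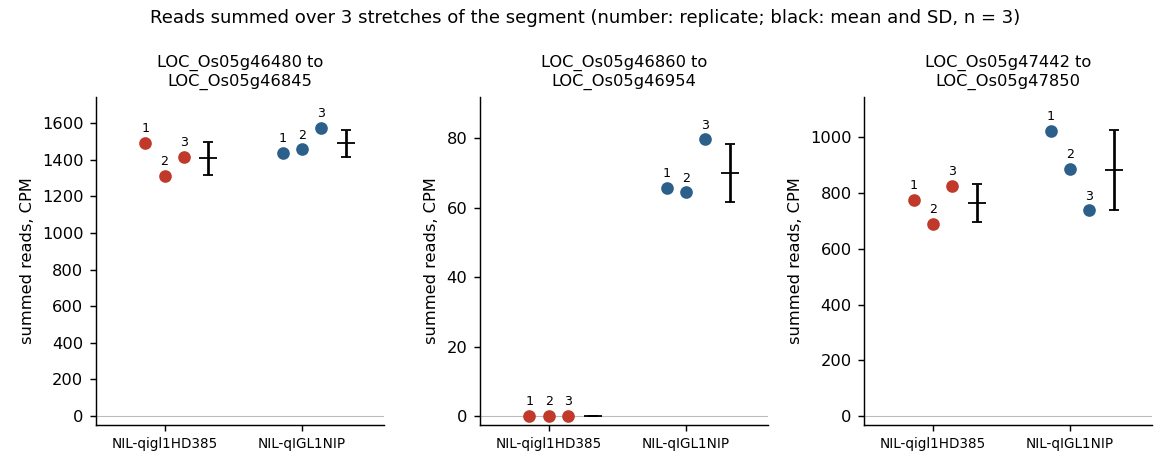
Reads, scaled to the library total as CPM, summed over the rows before, within and after the near-silent stretch, by library, NIL-qigl1HD385 left in red and NIL-qIGL1NIP right in blue, with the replicate number beside each point and the mean and SD in black (n = 3). The lines separate in the middle panel, at 0.106 CPM in NIL-qigl1HD385 and 69.9 CPM in NIL-qIGL1NIP on average, and overlap in the other panels; the middle rows were delimited by their low level in NIL-qigl1HD385.

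Most other abundant loci of the segment differed little between the lines. The mean over the 6 libraries reached 10 RPKM at 24 of the 81 loci and 1 RPKM at 43. LOC_Os05g46550 had 58.5, 48.3 and 71.2 RPKM in NIL-qigl1HD385, against 69.7, 65.4 and 59.4 RPKM in NIL-qIGL1NIP. LOC_Os05g46560 had 73.5, 57.3 and 70.4 RPKM in NIL-qigl1HD385, against 86.8, 75.2 and 103 RPKM in NIL-qIGL1NIP. LOC_Os05g46780 had 88.1, 66.7 and 79.1 RPKM in NIL-qigl1HD385, against 84.5, 79.2 and 102 RPKM in NIL-qIGL1NIP. The lines overlapped at LOC_Os05g46550 and LOC_Os05g46780 and were apart by a narrow margin at LOC_Os05g46560. LOC_Os05g47850, the last of the 81, was a little higher in NIL-qigl1HD385, with 73.7, 72.8 and 73.1 RPKM against 66.3, 65.7 and 56.5 RPKM in NIL-qIGL1NIP.

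Taking the 44 tested but uncalled loci together, 18 were higher and 26 lower in NIL-qigl1HD385. Their median log2 difference was -0.07, with a range of -1.17 to 1.68, beside a median of 0.02 over all uncalled loci of the table. The median size of the difference, regardless of direction, was 0.22 in the segment and 0.19 over the table. The lines did not overlap at 19 of the 50 tested loci, which is 38% beside 26.5% of all tested loci. These were 12 loci lower and 7 higher in NIL-qigl1HD385, beside 10.3% lower and 16.2% higher over the table. Of the 50, the share lower is above that of the table and the share higher below it, in a segment chosen for lower loci. The 12 lower ones include the 6 calls. In the part after the near-silent stretch, 5 such loci were higher in NIL-qigl1HD385, among them LOC_Os05g47490 and LOC_Os05g47780, and 3 lower. The 3 lower ones, LOC_Os05g47442, LOC_Os05g47446 and LOC_Os05g47470, were the first 3 tested loci after the stretch. Their log2 differences were -1.17, -0.34 and -0.25, and none was called. LOC_Os05g47490 averaged 1.79 ± 0.265 RPKM in NIL-qigl1HD385, against 1.13 ± 0.0992 RPKM in NIL-qIGL1NIP (SD, n = 3 each). LOC_Os05g47780 averaged 18.1 ± 0.631 RPKM in NIL-qigl1HD385, against 14.4 ± 1.73 RPKM in NIL-qIGL1NIP.

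Some loci varied more between libraries of a line than between the lines, and these were picked out after their values had been seen. LOC_Os05g46530 had 37.0, 0.284 and 0.131 RPKM in NIL-qigl1HD385, against 0.0747, 9.87 and 0.0901 RPKM in NIL-qIGL1NIP. A single library of each line was high, replicate 1 of NIL-qigl1HD385 and replicate 2 of NIL-qIGL1NIP, and the lines overlapped. Its larger SD within a line, 3.31 on the log2 scale, ranks 31st of 23181 tested loci. LOC_Os05g46480, the first of the 81, had 37.4, 53.4 and 15.9 RPKM in NIL-qigl1HD385, against 24.5, 20.7 and 87.4 RPKM in NIL-qIGL1NIP, where replicate 3 was the highest of all 6.

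LOC_Os05g47700 and LOC_Os05g47730 were both highest in NIL-qigl1HD385 replicate 2. LOC_Os05g47700 had 6.86, 56.0 and 11.1 RPKM in NIL-qigl1HD385 replicates 1, 2 and 3, against 5.98, 6.64 and 2.66 RPKM in NIL-qIGL1NIP. The lines did not overlap, though by a narrow margin between 6.86 and 6.64 RPKM, and the locus was not called. Its log2 difference was 1.68 (SE 0.76) with all libraries and 0.81 without NIL-qigl1HD385 replicate 2. LOC_Os05g47730 had 0.734, 6.22 and 1.23 RPKM in NIL-qigl1HD385, against 1.45, 1.02 and 0.159 RPKM in NIL-qIGL1NIP. NIL-qigl1HD385 replicate 2 also had the lowest mean correlation with its own line, 0.953 beside 0.962 to 0.970 for the other libraries with theirs. Whether this bears on the high values of these loci was not tested.

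LOC_Os05g47540 and LOC_Os05g47545 moved together in every library. LOC_Os05g47540 had 32.02, 14.1 and 36.9 RPKM in NIL-qigl1HD385, against 71.2, 48.3 and 34.2 RPKM in NIL-qIGL1NIP. LOC_Os05g47545 had 59.3, 25.5 and 67.6 RPKM in NIL-qigl1HD385, against 133, 89.8 and 63.7 RPKM in NIL-qIGL1NIP. The lines overlapped at both, and neither was called, at log2 differences of -0.92 (SE 0.42) and -0.96 (SE 0.43). Recovered reads of LOC_Os05g47545 were between 0.921 and 0.954 times those of LOC_Os05g47540 in all 6 libraries. Whether these gene models overlap and share reads is not given in the table. Both are included in the counts over the segment, although they may not be separate observations.

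**Figure D4:**
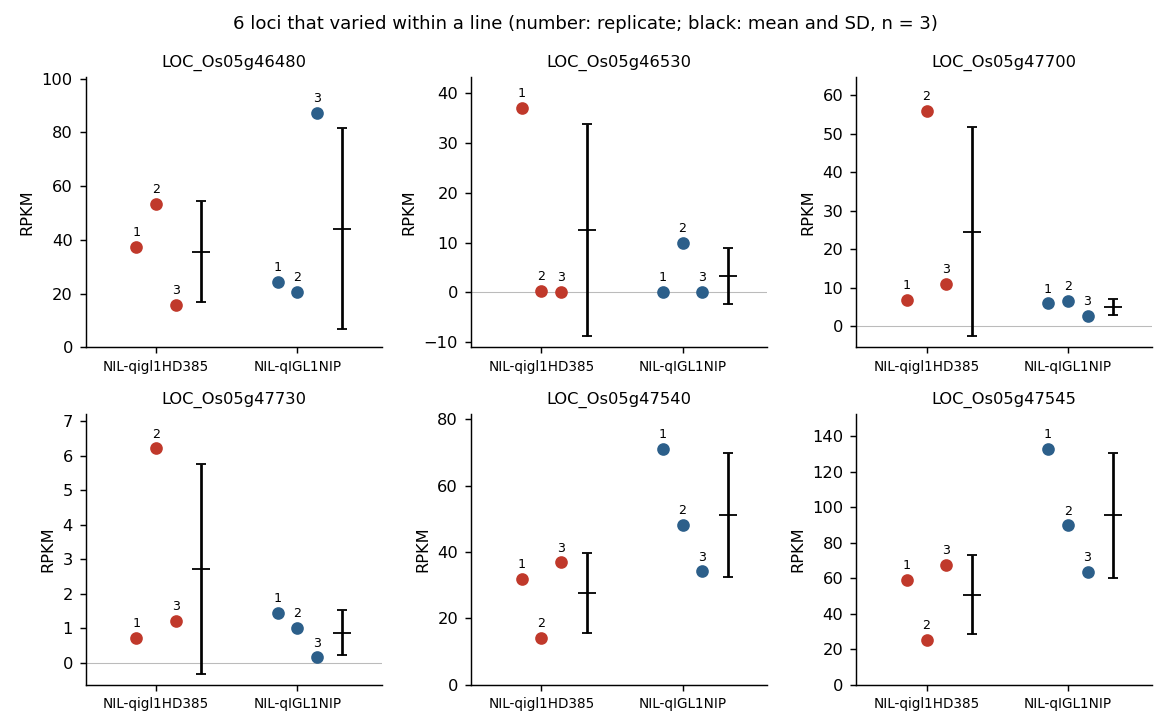
Level (RPKM, linear axes) by library of 6 loci that varied widely within a line, NIL-qigl1HD385 left in red and NIL-qIGL1NIP right in blue, with the replicate number beside each point and the mean and SD in black (n = 3). A single library carries the high value at LOC_Os05g46530 in each line and at LOC_Os05g47700 and LOC_Os05g47730 in NIL-qigl1HD385.

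The 31 loci under the filter had means of at most 0.459 RPKM in either line. Of these, 6 were at 0 in every library and 12 more had 1 to 3 reads over all 6 libraries. Among the 25 with reads, the mean was higher in NIL-qigl1HD385 at 8 and lower at 17. At 12 of the 25 this direction rests on 1 to 3 reads. The matching shares over the table were not counted, so nothing is read from these counts. The lines did not overlap at 5 of them, LOC_Os05g46700, LOC_Os05g46910, LOC_Os05g47750 and LOC_Os05g47770 lower and LOC_Os05g47620 higher in NIL-qigl1HD385. That is 4 lower and 1 higher of the 25 with reads, beside 4.29% lower and 4.28% higher of the 17864 loci of the table under the filter with reads. The share lower is above that of the table, on few loci of a segment chosen by the same contrast. LOC_Os05g47770 averaged 0.200 ± 0.0275 RPKM in NIL-qigl1HD385, against 0.358 ± 0.110 RPKM in NIL-qIGL1NIP, and LOC_Os05g47620 averaged 0.285 ± 0.0719 RPKM in NIL-qigl1HD385, against 0.116 ± 0.0372 RPKM in NIL-qIGL1NIP (SD, n = 3 each).

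LOC_Os05g46480 and LOC_Os05g47850, the first and last loci of the segment, were not called. The 3 rows before the segment, LOC_Os05g46450, LOC_Os05g46460 and LOC_Os05g46470, averaged 16.7, 9.09 and 3.30 RPKM in NIL-qigl1HD385, against 19.1, 11.1 and 4.63 RPKM in NIL-qIGL1NIP. None was called, and among them the lines did not overlap only at LOC_Os05g46460, which was lower in NIL-qigl1HD385. Of the 3 rows after it, LOC_Os05g47860 and LOC_Os05g47880 were under the filter, and LOC_Os05g47870 averaged 18.9 ± 1.02 RPKM in NIL-qigl1HD385, against 20.4 ± 2.26 RPKM in NIL-qIGL1NIP (SD, n = 3 each).

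Farther out on chromosome 5, the calls are given beside the 0.733% of all tested loci of the table. From locus number 44000 to the segment, limma called 0 of 126 tested loci and limma voom called 0. Without adjustment 22 of the 126 had a p under 0.05 in limma, beside 17% of all tested loci. From the segment to the end of the chromosome, limma called 3 of 253, or 1.19%. The nearest call before the segment, LOC_Os05g38140, lay 409 tested loci away. The nearest after it, LOC_Os05g48770, lay 56 tested loci away. It was at 0 RPKM in all 3 NIL-qigl1HD385 libraries, against 3.14, 2.47 and 1.66 RPKM in NIL-qIGL1NIP. With LOC_Os05g48790 and LOC_Os05g48830 it made up the 3 calls beyond the segment, all with a mean under 0.1 RPKM in NIL-qigl1HD385. The 12 calls of chromosome 5 made up 0.631% of its 1903 tested loci, and 11 of them were lower in NIL-qigl1HD385. The segment held 6 of the 12, and nothing is read from this, since the same contrast set its bounds.

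**Figure D5:**
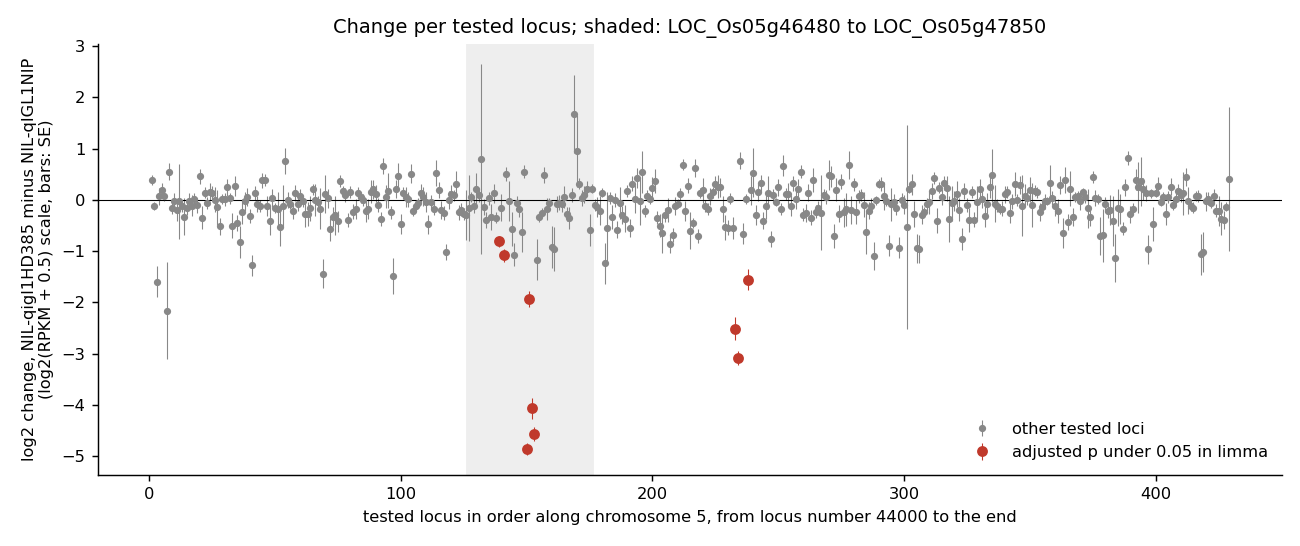
Log2 difference per tested locus, NIL-qigl1HD385 minus NIL-qIGL1NIP on the log2(RPKM + 0.5) scale with its SE, in order along chromosome 5 from locus number 44000 to the end, with called loci in red. In the shaded segment the 6 called loci lie between -4.86 and -0.81, and to its right the 3 called loci, LOC_Os05g48770, LOC_Os05g48790 and LOC_Os05g48830, are also lower in NIL-qigl1HD385.

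In 2 other stretches of 50 tested loci with many calls, the calls are given here as counts without a test. From LOC_Os03g38970 to LOC_Os03g40270, 9 loci were called, 2 higher and 7 lower in NIL-qigl1HD385, and 3 of them had a mean under 0.1 RPKM in that line. From LOC_Os11g45430 to LOC_Os11g47730, 25 were called, all higher in NIL-qigl1HD385, and 21 of them had a mean under 0.1 RPKM in NIL-qIGL1NIP. In the chromosome 5 segment 4 of the 6 calls had a mean under 0.1 RPKM in NIL-qigl1HD385. These 4 were next to each other only among the tested loci, with untested rows between some of them. In each stretch, calls with a mean under 0.1 RPKM in one line reached the filter only through the other line.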

How the data were processed

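The authors deposited 1 table of RPKM values (reads scaled to gene model length and library total), with 46732 rows and 1 column per library. The submitters' processing notes list edgeR 3.12.1, Subread 1.5.1, featureCounts and Trimmomatic 0.36, with no role for any. Aligner, build and strand setting: not given in the sources used here. If strand was ignored, reads of overlapping or antisense loci cannot be told apart, and near-identical copies can split or lose reads.

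None of the 81 identifiers is in the RefSeq gene table used here (0 matched), so no gene names, coordinates or sequences are given. Library totals, gene lengths and whole reads were recovered in Python 3.11.15 from the steps of low RPKM values. All values above 0 (100%) came out as whole reads within 0.003 plus 2e-08 of the value. For a locus with reads in only 1 library a fitting length is nearly always found, so this share is no check there. Recovered reads summed to 97.9 to 98.2% of the recovered library totals. Where a locus has few reads, the smallest fitting length was taken. A read pair may count as 1 or 2 reads, which no source states, and exact intervals (scipy 1.17.1) and the limit of 3 reads for a count of 0 cover counting error only.

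With R 4.3.3, limma 3.58.1 (trended eBayes) was fitted to log2(RPKM + 0.5) for the 23181 loci with a mean of at least 0.5 RPKM, two-sided, with Benjamini-Hochberg adjustment. Both scripts were tested on simulated data. Every difference is NIL-qigl1HD385 minus NIL-qIGL1NIP. The loci named are those called, uncalled loci at least 1.5-fold apart without overlap, the 10 most abundant loci, tested neighbours of calls, edge rows and low loci with reads in only 1 line. Besides these, LOC_Os05g46530, LOC_Os05g47470, LOC_Os05g47490, LOC_Os05g47620, LOC_Os05g47730, LOC_Os05g47750, LOC_Os05g47770 and LOC_Os05g47780 were named after their values were seen. The members, the 0.1 RPKM limit and the comparison stretches were chosen with earlier results of these data known. Alternatives were the pseudocount, the filter, scaling, the variance model, voom on recovered reads, the replicate block and leaving out each library.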

Additional observations from a re-analysis of the deposited data

How the results depend on the processing

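The 6 calls of the segment stood with a pseudocount of 0.1 or 1, median-ratio scaling, quantile normalization, no variance trend, robust variance and limma voom on recovered reads. Without a filter 5 of them were called, without LOC_Os05g46630, and with a mean of at least 2 RPKM 5, where LOC_Os05g46920 was not tested. Calls of at least 2-fold numbered 5. Leaving out 1 library gave 4 to 5 calls in the segment and 84 to 112 in the whole table. LOC_Os05g46890, LOC_Os05g46920, LOC_Os05g46950 and LOC_Os05g46954 were called in all 6 of these fits. With values this close to 0 in NIL-qigl1HD385, the pseudocount leaves little spread in that line, which helps a call to stay. Of the 21 tested loci named by rule, 19 kept the sign of their log2 difference in every fit. LOC_Os05g46690, at -0.15 with all libraries, ranged from -0.36 without NIL-qigl1HD385 replicate 1 to 0.14 without NIL-qigl1HD385 replicate 2. LOC_Os05g46480, at -0.16 with all libraries, ranged from -0.54 without NIL-qIGL1NIP replicate 2 to 0.485 without NIL-qIGL1NIP replicate 3, and was at 0.33 without NIL-qigl1HD385 replicate 3; neither locus was called in any fit. The loci named after their values were seen were not refitted one by one. In the whole table, 94 loci were called with a mean of at least 2 RPKM, where fewer loci are tested, and 46 with the replicate block. With the replicate block the segment had 3 calls, LOC_Os05g46890, LOC_Os05g46950 and LOC_Os05g46954. The block uses up degrees of freedom, and nothing in the labels pairs libraries by number: deviations of same-numbered libraries from their line means correlated at -0.28, -0.25 and -0.41 across loci, and 0 of 6 libraries were closest to their own number. Depth limits the loci at 0 reads, which are bounded only at the level of 3 reads.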
